A study of Mus musculus with 18 samples.

Results

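Granulocytes from the spleen were set against macrophages from the peritoneal cavity, all taken 2 h after an injection of interferon gamma (IFNg). The arrays were chosen by title, so that 2 arrays of granulocytes (GN) were compared with 2 arrays of macrophages (MF), which makes 4 of the 18 arrays in the series. GN cells were Ly6G+ spleen cells, and MF cells came from the peritoneal cavity and were positive for ICAM2 and for the macrophage antigen that the gene Adgre1 codes for. All mice were male, on the B6 (C57BL/6) background and 6 weeks old, and all had received 10000 U of IFNg under the skin. Cells of both groups were sorted on a FACSAria directly into TriZol, and total RNA was hybridised to Affymetrix gene-level arrays of the Mouse Gene ST type. The remaining 14 arrays cover 7 populations of lymphoid and dendritic cells (DC, NK, NKT, T4, T8, Tgd and Treg) from the spleens of mice treated in the same way. They entered the estimate of the spread and are used below only to place a level.

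The labels set several limits. Tissue lies wholly with the population, so spleen against peritoneal cavity and granulocyte against macrophage cannot be told apart. Untreated mice were not analysed here, so every value is a level after IFNg and not a response to it. No label says that the 2 arrays of a group come from separate mice. The p-values therefore describe how far arrays of the same population scatter, and that scatter may be technical only. It was pooled over all 18 arrays, most of them from the other populations. A standard error can thus be wider than the spread within GN or MF. RNA of sorted cells was measured in bulk, so fewer cells of a type and less RNA per cell cannot be told apart.

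Both cell types are phagocytes of the myeloid line. Neutrophil granulocytes are short-lived cells that leave the bone marrow with a finished set of granules, find their way by chemokine and complement receptors, and kill microbes with granule proteins and the phagocyte oxidase. Large peritoneal macrophages are long-lived resident cells that depend on the transcription factor GATA6, clear dying cells and supply complement and clotting factors to the cavity. IFNg binds a receptor made of Ifngr1 and Ifngr2, which signals through the kinases Jak1 and Jak2. Genes such as the transcription factor Irf1 are switched on through gamma-activated sites, while interferon-stimulated response elements serve chiefly the response to type I interferon.

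Levels are given as log2 of the deposited intensity, on which a difference of 1 is a 2-fold change. Over all genes and arrays the median level was 7.19, and values near or below it are dim, since the deposited table has no detection call and its normalization compresses differences between dim genes. Differences are GN minus MF with the standard error (SE) of the limma fit, and each adjusted p is limma's after Benjamini-Hochberg adjustment over all 19752 genes. A gene is called higher or lower where the adjusted p is under 0.05 and the difference is at least 2-fold.

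Of the 19752 genes, 4094 passed the threshold (20.7%), 1300 higher in GN (6.58%) and 2794 lower (14.1%). Each count of list members below is to be read beside these shares. Differences of at least 16-fold were seen in 83 genes higher and 76 lower. The median difference over all genes was 0.20. Arrays of a group correlated at r = 0.993 for GN and 0.995 for MF across genes, against 0.873 to 0.875 between a GN and an MF array, where genes are not independent replicates. Between the 2 arrays of a group, 18 genes differed at least 2-fold in GN and 31 in MF. Both GN arrays lay above both MF arrays in 10663 of the 19752 genes and below both in 6165. A lack of overlap, where given below, is therefore common to most genes. The upper quartile of intensity was 389 and 370 in the GN arrays, against 482 and 493 in the MF arrays, while their medians were 143 and 146, against 149 and 147. The upper part of the range was therefore lower in GN at a like median. Of the genes past the threshold 31.8% were higher in GN, and 39.5% after quantile normalization, which removes this difference.

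The plot of all genes by their level in both populations shows these calls and the genes named below.

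**Figure D1:**
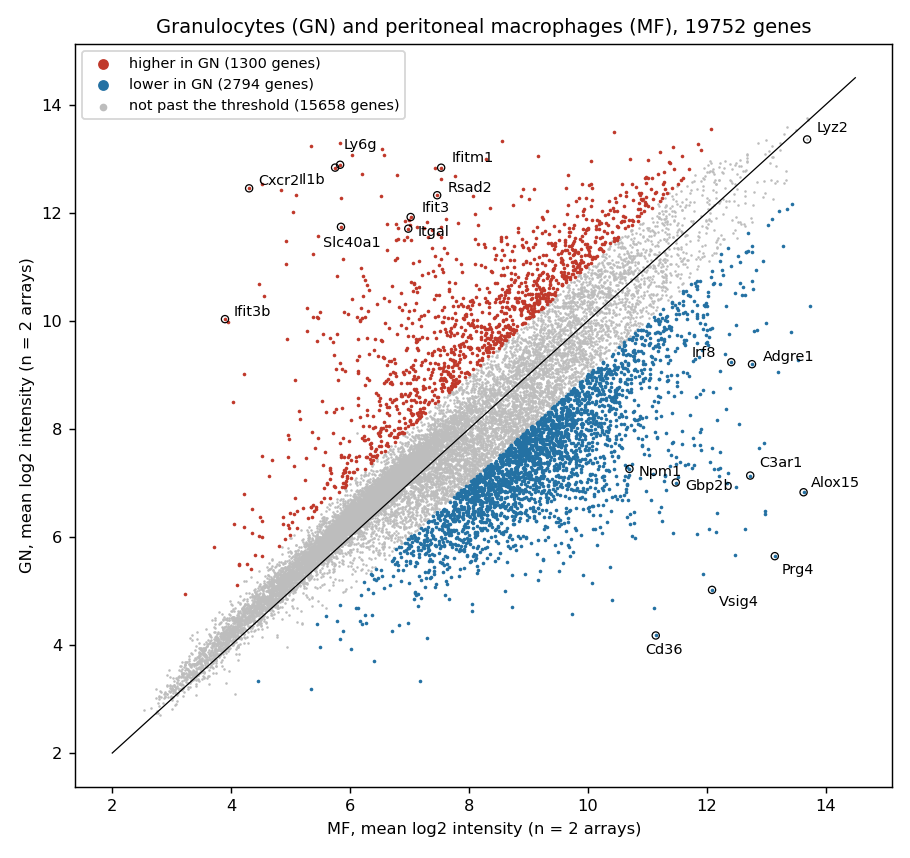
Mean log2 intensity of 19752 genes in GN (vertical) and MF (horizontal), 2 arrays each; red points passed the threshold as higher in GN (1300), blue points as lower (2794), and the line marks equal levels. Cxcr2, Ly6g and Il1b lie in the upper left corner and Prg4, Vsig4 and Cd36 in the lower right.

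The genes of the sort gate went with their labels. Ly6g stood at 12.79 and 12.99 in the GN arrays, against 5.70 and 5.97 in the MF arrays. Adgre1 stood at 9.40 and 9.0 in GN and at 12.79 and 12.74 in MF. Icam2 read 7.61 and 7.82 in GN and 11.60 and 11.57 in MF. These genes chose the cells and are no finding. Adgre1 in GN was above the level of dim genes and ranked the third highest of the 9 population means.

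Granulocyte genes led the positive differences. Without the sort gene Ly6g, all 15 measured granulocyte markers were higher in GN, by a median of 6.66, against a median of 0.20 over all genes, and GN had the highest of the 9 population means for each of them. The summed intensity of this list was 96567 and 107846 in the GN arrays, against 2961 and 3206 in the MF arrays. Cxcr2, the receptor that guides neutrophils to ELR chemokines, stood at 12.26 and 12.65 in GN, against 4.34 and 4.27 in MF (difference 8.15 ± 0.31, adjusted p = 6.76e-13), a 284-fold difference and the largest positive one of all named genes. Both GN arrays were bright and both MF arrays far below the median level, with no overlap. Next came the neutrophil collagenase Mmp8 (8.03 ± 0.45), the granule protein Ngp (7.90 ± 0.51), the IL-36 cytokine gene Il1f9 (7.59 ± 0.34), the calprotectin subunit S100a8 (7.47 ± 0.43) and Retnlg (7.23 ± 0.38), with adjusted p between 5.63e-10 and 4.58e-12. Besides Il1b, described below, the other leading genes outside the marker list were Gpr141, an orphan receptor, at 6.56 ± 0.22, Mgam, a maltase, at 6.52 ± 0.32, Chil1, a chitinase-like protein, at 6.50 ± 0.39, Arg2, the mitochondrial arginase, at 6.43 ± 0.33, and Sycp2, known from meiotic chromosomes, at 6.20 ± 0.29.

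Granule genes were mostly higher in GN as well. Of 14 genes of specific and gelatinase granules, which neutrophils fill late in their development, 13 were higher in GN and none lower, with a median difference of 4.74. Lactoferrin (Ltf) reached 12.89 and 13.24 in GN, against 6.22 and 5.85 in MF (7.02 ± 0.50, adjusted p = 1.65e-09), and the chitinase-like Chil3 reached 10.75 and 11.35, against 4.97 and 4.87 (6.13 ± 0.40, adjusted p = 6.34e-10). Groups did not overlap for either gene. Of 7 azurophil granule genes, which are transcribed early in the marrow, 4 were higher, 1 was lower, and the median was 1.08. Myeloperoxidase (Mpo) stood at 9.13 and 9.39 in GN, against 6.65 and 6.67 in MF (2.61 ± 0.24, adjusted p = 6.22e-08), and neutrophil elastase (Elane) at 8.55 and 9.12, against 6.67 and 6.73 (2.13 ± 0.25, adjusted p = 1.26e-06). Proteinase 3 (Prtn3) ran the other way, at 8.14 and 8.15 in GN and 9.74 and 9.78 in MF (-1.62 ± 0.16, adjusted p = 8.74e-08). Ms4a3 passed at 1.08 ± 0.11 and read 0.90 after quantile normalization, which is under 2-fold. Padi4, the enzyme that citrullinates histones in neutrophil traps, was bright in both at 10.90 and 10.86 in GN and 11.66 and 11.78 in MF and did not pass (-0.84 ± 0.27, adjusted p = 0.0115).

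Receptors for chemoattractants were mostly higher in GN where they passed. Of 14 measured, 8 were higher in GN, against 6.58% of all genes, and 2 lower, against 14.1%. Besides Cxcr2 and the G-CSF receptor Csf3r (3.04 ± 0.32), the higher ones were Cxcr4, which holds neutrophils in the marrow (4.62 ± 0.21), the leukotriene B4 receptor Ltb4r1 (3.06 ± 0.21), Cxcr1 (3.05 ± 0.13), Ccrl2 (2.36 ± 0.21), C5ar2 (2.33 ± 0.13) and the platelet-activating factor receptor Ptafr (1.80 ± 0.20). Ccr1 at 0.74 ± 0.33 and the C5a receptor C5ar1 at 0.28 ± 0.33 did not pass, and for these both populations stood above the other 7. The lower ones were the C3a receptor C3ar1, at 7.50 and 6.77 in GN against 12.67 and 12.79 in MF (-5.60 ± 0.22, adjusted p = 9.89e-13), and the chemerin receptor Cmklr1 (-4.34 ± 0.17).

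Genes of resident peritoneal macrophages stood at the other end. Without the sort gene Icam2, 17 of 18 measured were lower in GN, none was higher, and the median difference was -4.47, with MF the highest of the 9 population means for all 18. Prg4, which codes for lubricin, stood at 5.61 and 5.68 in GN, against 13.13 and 13.16 in MF (-7.50 ± 0.37, adjusted p = 1.54e-11), a 181-fold difference. Vsig4, the complement receptor of resident macrophages, stood at 4.84 and 5.20 in GN and 12.13 and 12.05 in MF (-7.07 ± 0.16, adjusted p = 2.29e-15). In both genes the GN arrays were dim, the MF arrays bright and the groups apart. Gata6 itself was at 6.94 and 7.02 in GN, against 10.78 and 10.54 in MF (-3.68 ± 0.12, adjusted p = 1.26e-13). The tetraspanin Cd9, at 11.02 and 11.27 in GN and 11.05 and 11.51 in MF, was the member that did not pass (-0.13 ± 0.18, adjusted p = 0.512). Among the 15 largest negative differences outside this list were the scavenger receptor Cd36 (-6.97 ± 0.19), the fatty acid binding protein Fabp7 (-6.54 ± 0.17), Plxdc2 (-6.50 ± 0.16), the endothelin receptor Ednrb (-6.49 ± 0.13), Retnla (-6.43 ± 0.14), the endocytic adaptor Dab2 (-6.07 ± 0.13) and the dipeptidase Dpep2 (-5.74 ± 0.14). A second probe set for Dab2 read 0.25 ± 0.13 and did not pass.

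Markers shared by macrophages at large were less far apart. Without Adgre1, 10 of 16 measured were lower in GN and none higher, with a median of -1.64. Scavenger receptor Msr1 (-5.35 ± 0.18), the apoptotic cell receptor Mertk (-4.74 ± 0.31) and apolipoprotein Apoe (-3.63 ± 0.19) had the largest differences. Csf1r, the receptor for the macrophage growth factor, was at 10.45 and 10.20 in GN and 11.91 and 12.07 in MF (-1.67 ± 0.22, adjusted p = 4.91e-06), above the median level of all genes in both. Lysozyme Lyz2 was at 13.26 and 13.45 in GN and 13.64 and 13.74 in MF and did not pass (-0.33 ± 0.60, adjusted p = 0.628). That SE is wider than the spread within GN or MF, since it pools the scatter of all populations.

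**Figure D2:**
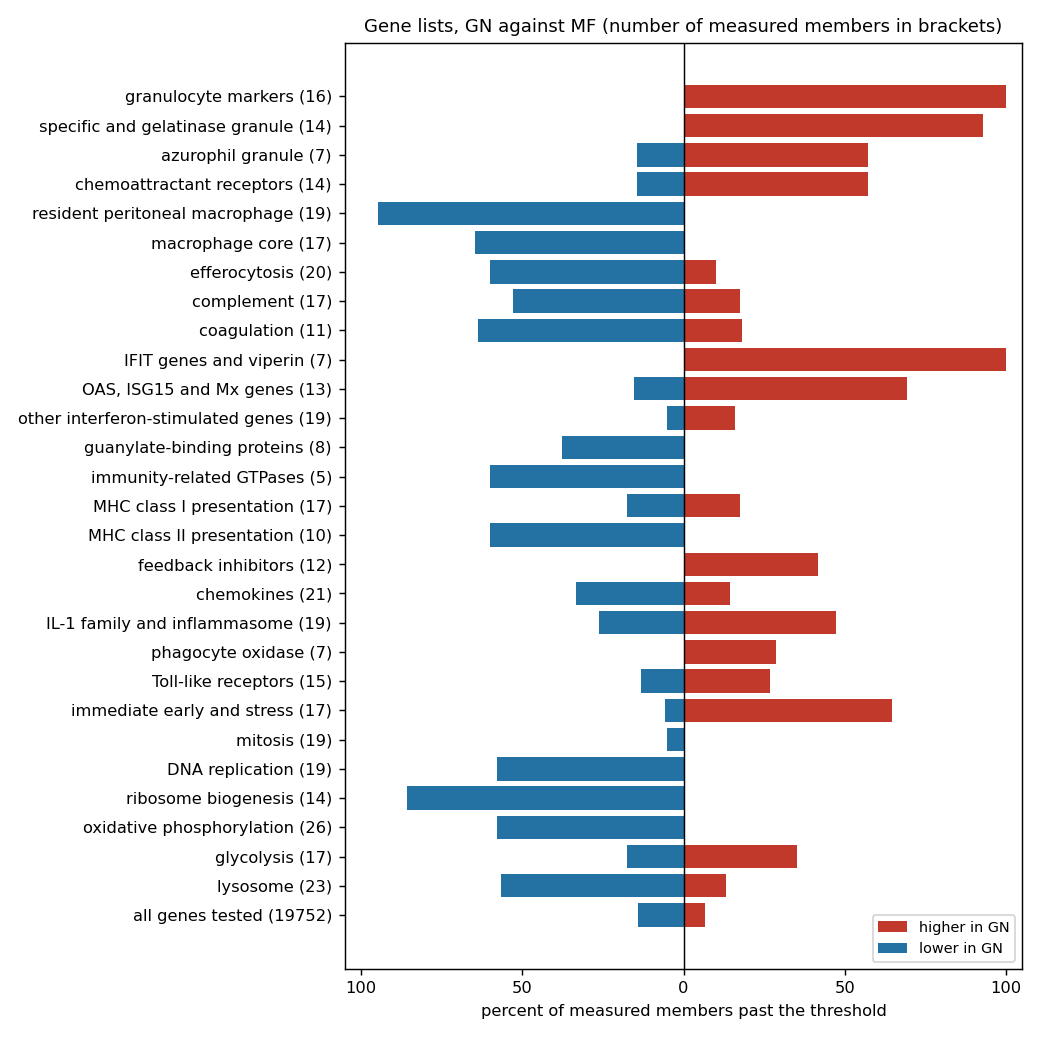
Percent of the measured members of 28 gene lists that passed the threshold, to the right as higher in GN and to the left as lower, with the number of measured members in brackets and all 19752 genes in the last row (6.58% higher, 14.1% lower). The granulocyte, resident macrophage and macrophage core lists here include their sort genes Ly6g, Icam2 and Adgre1. Granulocyte and IFIT lists lie wholly to the right, and the resident macrophage, ribosome biogenesis and oxidative phosphorylation lists wholly to the left.

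Of 14 measured genes of the interferon receptors and their signalling, 4 were higher in GN, against 6.58% of all genes, and 1 was lower, against 14.1%. The median difference was 0.49. The receptor chain Ifngr1 stood at 10.71 and 10.89 in GN and 10.37 and 10.74 in MF, where the groups overlap (0.24 ± 0.11, adjusted p = 0.0558). Ifngr2 was at 11.49 and 11.41, against 10.59 and 10.56, a difference short of 2-fold (0.88 ± 0.12, adjusted p = 5.52e-06). The kinase Jak2 was higher at 11.21 and 11.06 in GN, against 9.60 and 9.53 in MF (1.57 ± 0.12, adjusted p = 5.11e-09), and so was Irf7, a driver of type I interferon genes, at 12.41 and 12.37, against 10.68 and 10.61 (1.74 ± 0.12, adjusted p = 1.08e-09). Jak1 (1.00) and Stat2 (1.01) passed at the edge of the threshold and fell to 0.80 and 0.81 after quantile normalization, which left 2 of the 4. Without GN replicate 1 they were 0.94 and 0.97, again with 2 of the 4 left, and a second gene was then lower. Irf1 did not reach 2-fold at 0.52 ± 0.10, though its other probe set read 1.48 ± 0.22 and passed. Irf8, a partner of IRF1 and PU.1 in macrophages, was the lower one, at 9.34 and 9.13 in GN, against 12.44 and 12.38 in MF (-3.18 ± 0.16, adjusted p = 3.16e-11). Batf2, another interferon-induced factor of macrophages, was likewise lower at 8.97 and 8.86, against 11.30 and 11.11 (-2.29 ± 0.15, adjusted p = 7.64e-10).

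The antiviral IFIT genes, Rsad2 and Cmpk2 were higher in GN. IFIT proteins bind foreign RNA ends, viperin (Rsad2) makes a chain-terminating nucleotide, and Cmpk2 lies beside Rsad2 and supplies nucleotides. All 7 measured genes passed as higher, with a median difference of 4.90 and a range of 2.60 to 6.14, and GN had the highest of the 9 population means for all 7. Promoters of 3 of these genes and of 2 guanylate-binding protein genes are shown. The first set was higher in GN, while Gbp2b was lower and Gbp7 was above MF by less than 2-fold. All hold the same short motif. Each run is the 200 bases before the RefSeq start of the gene on assembly GRCm38.p6, read 5′ to 3′ on the strand of the gene. Capitals mark the letters GAAANNGAAA, the core of the interferon-stimulated response element, on either strand, and in Gbp7 also TTCNNNGAA, the core of the gamma-activated site, which reads the same on both strands. Ifit1 is at chr19:34640689-34640888 and Ifit3 at chr19:34583329-34583528 on the plus strand, Rsad2 at chr12:26456453-26456652 on the minus strand, and Gbp2b at chr3:142594647-142594846 and Gbp7 at chr3:142530136-142530335 on the plus strand.
Ifit1: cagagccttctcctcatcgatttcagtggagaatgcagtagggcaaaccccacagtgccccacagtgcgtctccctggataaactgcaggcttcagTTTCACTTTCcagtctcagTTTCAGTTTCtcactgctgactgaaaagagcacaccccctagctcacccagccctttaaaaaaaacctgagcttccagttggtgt
Ifit3: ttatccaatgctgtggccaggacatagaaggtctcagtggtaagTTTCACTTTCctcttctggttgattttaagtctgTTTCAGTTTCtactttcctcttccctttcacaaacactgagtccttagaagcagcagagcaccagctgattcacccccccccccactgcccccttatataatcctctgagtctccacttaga
Rsad2: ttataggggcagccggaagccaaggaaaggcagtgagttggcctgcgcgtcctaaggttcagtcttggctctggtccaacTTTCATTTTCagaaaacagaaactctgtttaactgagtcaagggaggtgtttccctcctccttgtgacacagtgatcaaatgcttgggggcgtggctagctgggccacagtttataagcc
Gbp2b: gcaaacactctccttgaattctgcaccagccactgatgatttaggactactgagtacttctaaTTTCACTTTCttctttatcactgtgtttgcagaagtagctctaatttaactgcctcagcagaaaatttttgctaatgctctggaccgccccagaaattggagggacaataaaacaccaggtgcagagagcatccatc
Gbp7: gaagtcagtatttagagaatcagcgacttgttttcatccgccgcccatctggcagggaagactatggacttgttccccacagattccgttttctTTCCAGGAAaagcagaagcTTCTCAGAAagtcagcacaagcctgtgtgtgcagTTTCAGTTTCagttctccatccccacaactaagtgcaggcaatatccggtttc

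Ifit1 and Ifit3 each showed 2 matches to the response element core in these 200 bases, and Rsad2, Gbp2b and Gbp7 showed 1 each. Gbp7 alone of the 5 also held the gamma-activated core, with 2 matches. Over the 250 bases before the start, 5 of 7 IFIT list genes and 4 of 4 guanylate-binding protein genes with a RefSeq entry held GAAANNGAAA, as did 2 of 8 genes of the OAS, ISG15 and Mx list and 2 of 2 immunity-related GTPases, against 3.46% of all 27025 genes with an entry. For the gamma-activated core the counts were 1 of 7 IFIT list genes, 2 of 4 guanylate-binding protein genes, 2 of 8 of the OAS, ISG15 and Mx list and 1 of 2 immunity-related GTPases, against 8.13% of all genes. Among tested genes with an entry GAAANNGAAA was in 5.24% of those higher in GN, 3.22% of those lower and 3.28% of those not called. The gamma-activated core was in 8.10% of the genes higher in GN, 7.14% of those lower and 7.77% of those not called. Among the guanylate-binding proteins and immunity-related GTPases with an entry, only Gbp2b was called lower in GN. Gbp4, Gbp11, Iigp1, Gm4951 and Gm4841, also called lower, had no entry. A match is only a run of letters and says nothing of binding in these cells.

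Ifit3b stood at 9.87 and 10.20 in the GN arrays, against 3.91 and 3.88 in the MF arrays (6.14 ± 0.30, adjusted p = 1.64e-11). Ifit3, whose promoter is shown above, stood at 11.80 and 12.04 in GN and 7.06 and 6.98 in MF (4.90 ± 0.15, adjusted p = 4.65e-14). Rsad2 stood at 12.41 and 12.24 in GN and 7.48 and 7.45 in MF (4.86 ± 0.28, adjusted p = 1.05e-10). The GN arrays were high and the MF arrays near or below the median level of all genes in each, so that MF levels here are dim. Ifit1bl2 (6.12 ± 0.36), Ifit2 (5.05 ± 0.15), Ifit1 (3.73 ± 0.18) and Cmpk2 (2.60 ± 0.20) completed the list. MF had the lowest of the 9 population means for 4 of the 7. Ifit genes share sequence and lie side by side on chromosome 19, so their probe sets may share signal.

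OAS genes and other antiviral enzymes followed with smaller differences. Of 13 measured members of the OAS, ISG15 and Mx list, 9 were higher in GN and 2 lower, with a median of 1.45. Oasl1, an OAS-like regulator of Irf7 translation, stood at 11.49 and 11.62 in GN, against 7.46 and 7.60 in MF (4.03 ± 0.19, adjusted p = 7.92e-12). Oas3, which makes the 2-5A signal for RNase L, stood at 12.47 and 12.44, against 9.79 and 9.47 (2.82 ± 0.21, adjusted p = 2.78e-09), and the exonuclease Isg20 at 11.72 and 11.59, against 9.09 and 9.06 (2.58 ± 0.19, adjusted p = 2.18e-09). All GN arrays lay above all MF arrays for these genes. The Mx genes, of a family of dynamin-like GTPases, ran the other way. Mx1 was at 6.34 and 5.92 in GN, against 8.42 and 8.01 in MF (-2.09 ± 0.24, adjusted p = 9.87e-07), and Mx2 at 5.27 and 5.28, against 6.96 and 7.37 (-1.89 ± 0.30, adjusted p = 3.19e-05). Both were dim in GN.

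Of 19 other interferon-stimulated genes, 3 were higher and 1 lower with a median of 0.82. By the adjusted p alone 14 of the 19 were higher, against 38.5% of all genes by that rule, which called 27.1% of all genes lower. Without MF replicate 2 the higher count was 6. Ifitm1, a membrane protein that blocks virus entry, stood apart at 12.90 and 12.77 in GN, against 7.56 and 7.50 in MF (5.30 ± 0.14, adjusted p = 1.18e-14), while its neighbours Ifitm2 (0.30 ± 0.20) and Ifitm3 (0.09 ± 0.26) did not pass. The others higher were Ifi27l2a (1.19 ± 0.21) and Ifi35 (1.02 ± 0.15), of which Ifi35 read 0.90 after quantile normalization. Lgals3bp, a secreted scavenger-receptor-domain protein, was lower at 9.80 and 9.72, against 12.40 and 12.33 (-2.61 ± 0.12, adjusted p = 5.71e-12). Among sensors of viral nucleic acid the RNA helicases Ddx58 (1.69 ± 0.13) and Ifih1 (1.66 ± 0.15) were higher, and their adaptor Mavs (-1.94 ± 0.15) and the DNA sensor Aim2 (-1.44 ± 0.15) were lower.

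Guanylate-binding proteins, large GTPases that attack the vacuoles of intracellular microbes, were lower in GN or differed by less than 2-fold in either direction. Of 8 measured, 3 were lower in GN, against 14.1% of all genes, and none was higher, with a median of -0.70. The summed intensity of this list was 20054 and 19748 in the GN arrays, against 20836 and 17101 in the MF arrays. Gbp2b stood at 6.92 and 7.10 in GN, against 11.57 and 11.39 in MF (-4.47 ± 0.14, adjusted p = 9.34e-14), a clear gap with GN at the median level of all genes. Gbp11 stood at 7.60 and 7.63 in GN and 10.16 and 9.84 in MF (-2.39 ± 0.17, adjusted p = 1.61e-09). Gbp4 stood at 9.57 and 9.34 in GN and 11.13 and 10.13 in MF (-1.18 ± 0.22, adjusted p = 0.000164), and it rests on MF replicate 2, since the difference without that array was -0.68. The groups did not overlap for any of these, as for most genes. Gbp7 at 12.93 in both GN arrays, against 12.14 and 11.99 in MF (0.86 ± 0.13, adjusted p = 2.52e-05), and Gbp5 at 12.46 and 12.54, against 11.78 and 11.56 (0.83 ± 0.13, adjusted p = 4.42e-05), were above MF by less than 2-fold. Gbp3 did not pass (0.24 ± 0.14, adjusted p = 0.153). Gbp genes lie in 2 clusters. On chromosome 5, Gbp4, Gbp8, Gbp9 and Gbp11 had negative differences, from -2.39 to -0.47, and on chromosome 3 Gbp3, Gbp5 and Gbp7 had positive ones and Gbp2b the largest negative one. GBP genes are alike in sequence, and members whose probe sets name several genes were not used here.

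Immunity-related GTPases, which act with the GBPs on vacuoles, were likewise lower or short of 2-fold. Of 5 measured, 3 were lower in GN and none higher. Iigp1 stood at 8.56 and 8.62 in GN, against 11.96 and 11.68 in MF (-3.23 ± 0.19, adjusted p = 1.31e-10). Its relatives Gm4951 (-4.01 ± 0.19, adjusted p = 1.04e-11) and Gm4841 (-3.63 ± 0.15, adjusted p = 2.59e-12) were lower too. The regulatory GTPase Irgm1 was bright in both, at 12.53 in both GN arrays and 12.25 and 12.07 in MF, and did not reach 2-fold (0.37 ± 0.10, adjusted p = 0.00441).

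**Figure D3:**
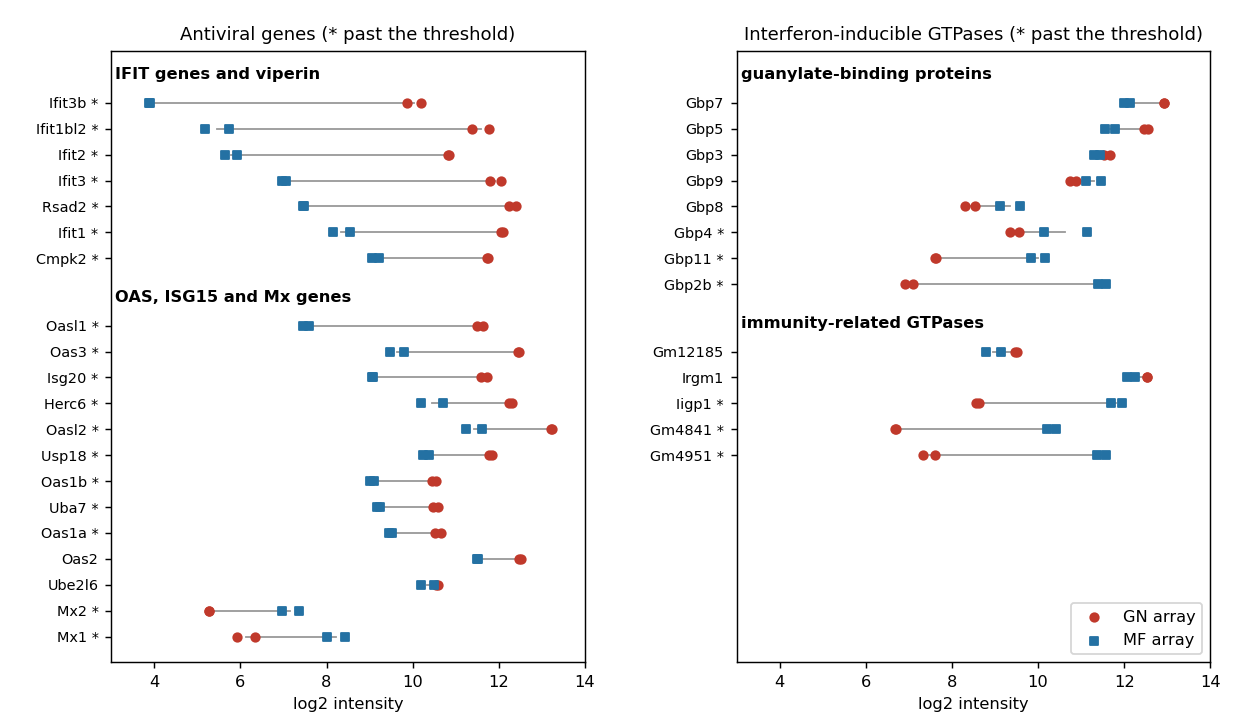
Log2 intensity (horizontal) of antiviral genes (left) and interferon-inducible GTPases (right) in each array, with red circles for the 2 GN arrays and blue squares for the 2 MF arrays, joined by a line between means; an asterisk marks genes past the threshold. All 7 IFIT list genes lie to the right in GN, while Gbp2b, Gbp11, Iigp1, Gm4841 and Gm4951 lie to the right in MF and Gbp3, Gbp5, Gbp7 and Irgm1 are bright in both.

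Of 17 genes of the MHC class I pathway, 3 were higher in GN and 3 lower, against 6.58% higher and 14.1% lower of all genes. The class I gene H2-Q4 (1.66 ± 0.09), the peptide transporter subunit Tap2 (1.31 ± 0.10) and the immunoproteasome subunit Psmb8 (1.26 ± 0.11) were higher, and Tap1 came close at 0.97 ± 0.09. B2m, the light chain, was at 12.99 and 13.20 in GN and 12.99 and 12.97 in MF (0.12 ± 0.07, adjusted p = 0.147). The 3 lower members were chaperones that fold many proteins of the endoplasmic reticulum besides class I: Pdia3 (-2.18 ± 0.13), Canx (-2.06 ± 0.12) and Calr (-1.96 ± 0.10), for each of which GN had the lowest of the 9 population means and MF the highest. Nlrc5, the class I transactivator, read 0.71 ± 0.09 on the probe set used, and its others read between 0.55 and 1.28. Class II genes were lower in GN in 6 of 10 cases with none higher, and the median was -1.49. H2-Aa stood at 7.62 and 7.37 in GN, against 10.01 and 10.50 in MF (-2.76 ± 0.37, adjusted p = 5.74e-06). Its partner chain H2-Ab1 was lower (-2.58 ± 0.28), and so was the class II transactivator Ciita, at 7.06 and 6.89, against 8.63 and 8.55 (-1.61 ± 0.12, adjusted p = 4.84e-09). GN levels of H2-Aa and Ciita were near the median of all genes and MF levels above it, and for H2-Ab1 the DC mean of 13.48 stood above those of GN and MF.

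Costimulatory genes gave 3 higher and 2 lower of 11, against 6.58% higher and 14.1% lower of all genes. Cd274, which codes for the checkpoint ligand PD-L1, was at 13.13 and 12.96 in GN, against 11.63 and 11.55 in MF (1.45 ± 0.10, adjusted p = 7.81e-10). Cd80 (1.87 ± 0.22) and Icosl (1.95 ± 0.16) were higher as well. Cd40 (-2.74 ± 0.13) and Cd86 (-2.12 ± 0.24) were lower, and Cd86 was at 8.41 and 7.69 in GN, against 9.79 and 10.54 in MF.

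**Figure D4:**
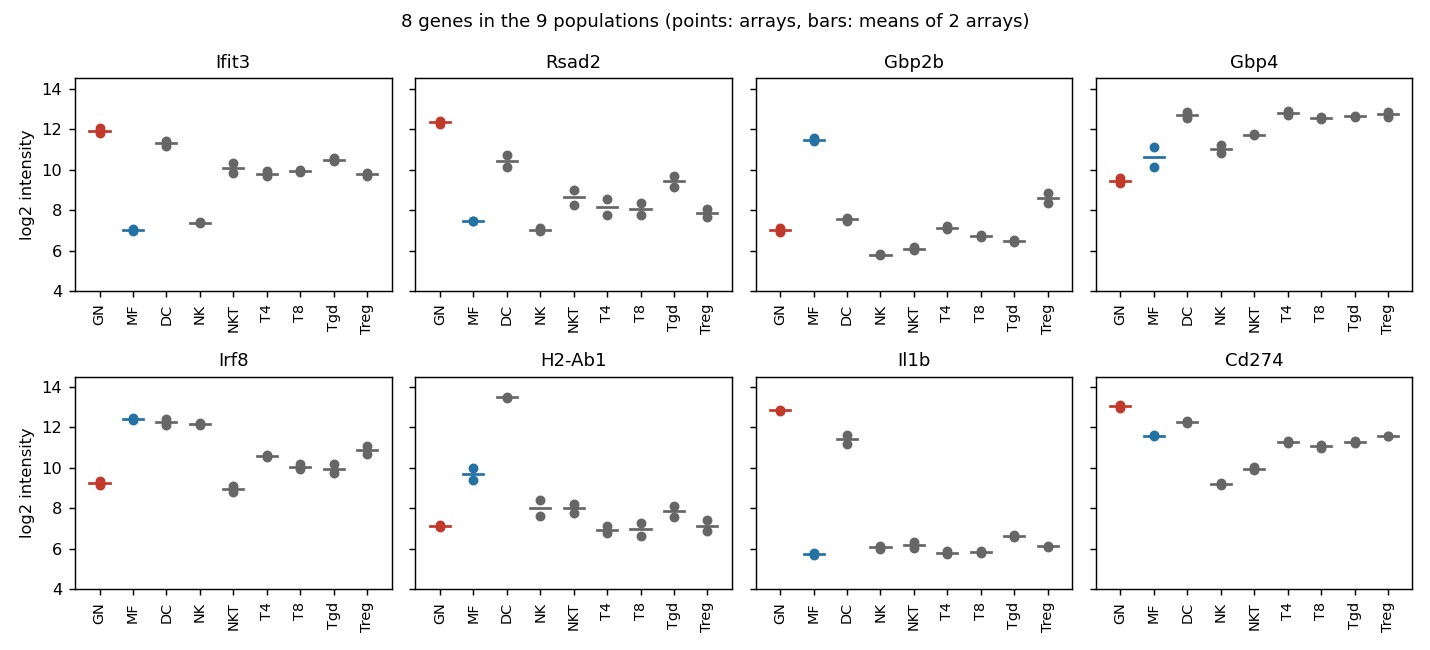
Log2 intensity of 8 genes in the 2 arrays of each of 9 populations after IFNg, with GN in red, MF in blue and the other 7 in grey; bars are means. GN is the highest of the 9 means for Ifit3, Rsad2, Il1b and Cd274 and the lowest for Gbp4, and MF is the highest for Gbp2b and Irf8; differences between neighbouring means were not tested.

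Chemokine genes went both ways. Of 21 measured, 3 were higher in GN and 7 lower, against 6.58% higher and 14.1% lower of all genes. The higher ones were Ccl4 (1.58 ± 0.20) and the interferon-induced CXCR3 ligands Cxcl9 (1.18 ± 0.31) and Cxcl11 (1.08 ± 0.13). Cxcl9 stood at 11.55 and 11.29 in GN, against 10.47 and 10.01 in MF, and without MF replicate 3 its difference was 0.95. Cxcl11 was 0.99 after quantile normalization. Cxcl10, the third CXCR3 ligand, was bright in both at 12.76 and 12.59 in GN and 12.09 and 11.86 in MF and did not pass (0.69 ± 0.39, adjusted p = 0.121). The lower ones were the B cell attractant Cxcl13 at 6.15 in both GN arrays against 11.98 and 12.09 in MF (-5.89 ± 0.16, adjusted p = 1.53e-14), the eosinophil attractant Ccl24 (-4.28 ± 0.22), Ccl9 (-4.01 ± 0.19), the monocyte attractants Ccl7 (-3.83 ± 0.26), Ccl2 (-3.68 ± 0.31) and Ccl12 (-2.31 ± 0.20), and Cxcl16 (-1.84 ± 0.21). The MF arrays were far apart for Ccl2, at 10.71 and 12.13, and for Ccl7, at 9.93 and 11.28, yet both lay above both GN arrays.

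The 2 populations held different interleukin-1 genes. Of 19 genes of the family and the inflammasome, 9 were higher in GN and 5 lower. Of all genes 6.58% were higher and 14.1% lower. Il1b was at 12.87 and 12.81 in GN, against 5.79 and 5.70 in MF (7.09 ± 0.14, adjusted p = 8e-16), while Il1a was at 5.74 and 5.97 in GN, against 9.21 and 9.70 in MF (-3.60 ± 0.16, adjusted p = 6.6e-12). GN arrays were high for Il1b and dim for Il1a, and MF arrays the reverse. The decoy receptor Il1r2 (5.88 ± 0.21) and the receptor antagonist Il1rn (4.23 ± 0.27), both of which restrain IL-1, were higher in GN together with the receptor chain Il1rap (3.40 ± 0.29), as was the inflammatory caspase Casp4 (1.09 ± 0.20). Of the sensors, Mefv (3.21 ± 0.12), Nlrp3 (2.44 ± 0.13) and Nlrp1b (1.32 ± 0.18) were higher and Nlrc4 (-1.97 ± 0.18), Naip5 (-1.62 ± 0.23) and Aim2 were lower. The adaptor Pycard, which links sensors to caspase 1, was at 9.03 and 9.08 in GN, against 11.85 and 11.37 in MF (-2.55 ± 0.17, adjusted p = 8.92e-10), the lowest of the 9 population means in GN and the highest in MF. Casp1 itself did not reach 2-fold (0.49 ± 0.14, adjusted p = 0.00636).

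The arginases went opposite ways. Arg2 was higher in GN, as given above, and Arg1, the cytosolic enzyme, was at 6.38 and 6.42 in GN, against 10.27 and 10.13 in MF (-3.80 ± 0.13, adjusted p = 1.74e-13). Slc7a2, an arginine transporter, was lower (-4.82 ± 0.16), and Nos2, the inducible nitric oxide synthase, was dim in all 4 arrays, between 6.50 and 7.02. Tnf (2.97 ± 0.22), the cross-linking enzyme Tgm2 (2.93 ± 0.15), Il15 (2.33 ± 0.17), Acod1, the itaconate enzyme (1.27 ± 0.27), and the B cell survival factor Tnfsf13b (1.27 ± 0.16) were higher in GN, making 6 of 13 with Arg2, and 4 of 13 were lower, with the death ligand Tnfsf10 (-1.48 ± 0.19) and Il6 (-1.52 ± 0.12) besides Arg1 and Slc7a2. Il6 was dim in all arrays, at 3.85 and 4.09 in GN and 5.49 in both MF arrays. Of 7 phagocyte oxidase genes 2 were higher, Ncf4 (1.23 ± 0.14) and Ncf1 (1.04 ± 0.18, and 0.84 after quantile normalization), while the catalytic subunit Cybb was at 12.44 and 12.74 in GN and 12.91 and 13.03 in MF (-0.38 ± 0.26, adjusted p = 0.192).

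Of 5 Fc receptor genes, Fcgr4 was higher (1.10 ± 0.24, and 0.99 after quantile normalization and 0.91 without MF replicate 3) and the high-affinity receptor Fcgr1 was lower at 8.60 and 8.75, against 10.76 and 10.62 (-2.01 ± 0.25, adjusted p = 2.32e-06). Toll-like receptor genes gave 4 higher and 2 lower of 15, against 6.58% higher and 14.1% lower of all genes. Tlr6 (1.93 ± 0.18), the adaptor Tirap (1.39 ± 0.20), Tlr9 (1.19 ± 0.14) and Tlr2 (1.03 ± 0.17) were higher. After quantile normalization 3 of these 4 calls were kept, without that of Tlr2. The sensors of double-stranded and single-stranded RNA, Tlr3 (-2.86 ± 0.14) and Tlr7 (-1.78 ± 0.25), were lower.

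Feedback and immediate early genes leaned to GN. Of 12 inhibitors of cytokine signalling 5 were higher and none lower: Dusp1 (2.28 ± 0.62), Il18bp (1.67 ± 0.12), Tnfaip3 (1.52 ± 0.38), Usp18 (1.51 ± 0.17) and Cish (1.00 ± 0.23). Without GN replicate 1 Cish read 0.84. Socs3, which blocks STAT3, was 0.98 ± 0.24 on the probe set used and 2.00 ± 0.25 on its other one, and Socs1, which blocks Jak kinases under IFNg, was 0.86 ± 0.17. Of 17 immediate early and stress genes, which respond fast to signals and also to handling of cells, 11 were higher and 1 lower, with a median of 1.83. Fos was at 11.35 and 11.15 in GN, against 7.17 and 8.09 in MF (3.62 ± 0.69, adjusted p = 0.00024), and Fosb at 10.15 and 9.67, against 7.12 and 7.25 (2.72 ± 0.51, adjusted p = 0.000209). Nr4a1 was at 10.99 and 9.88, against 8.06 and 8.19 (2.31 ± 0.38, adjusted p = 5.36e-05). GN arrays were above MF arrays in all 3 genes. Replicates lay far apart for Fos in MF and for Nr4a1 in GN. Egr2 was lower (-1.14 ± 0.28), and it was -0.59 without MF replicate 3 and -0.87 without GN replicate 2. MF had the lowest of the 9 population means for 10 of these 17 genes. How long each tissue was handled before sorting is not given in the labels, and its part in this result was not tested.

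For DNA replication, genes were lower in GN in 11 of 19 cases with none higher, against 14.1% of all genes lower. The median was -1.14. Mitosis genes were lower in 1 of 19 cases, which is under that share, with none higher and a median of -0.72. The helicase subunit Mcm6 stood at 7.12 and 7.38 in GN, against 9.71 and 9.54 in MF (-2.38 ± 0.13, adjusted p = 4.66e-11), and the sliding clamp Pcna at 10.21 and 10.16, against 11.86 and 11.63 (-1.56 ± 0.09, adjusted p = 1.81e-10). For both, GN arrays were lower without overlap, and GN had the lowest of the 9 population means for 10 of the 19 replication genes. Of the mitosis genes, the kinase Bub1 was lower at 7.52 and 7.55, against 9.22 and 8.50 (-1.32 ± 0.36, adjusted p = 0.00467). That list rests on MF replicate 2, since the list summed to 6821 and 7137 in the GN arrays, against 13110 and 8970 in the MF arrays, in replicates 2 and 3: without MF replicate 2 no member passed (Bub1 at -0.96), and without MF replicate 3 5 did. The proliferation marker Mki67 stood at 9.30 and 9.60 in GN and 10.23 and 9.56 in MF, where the groups overlap (-0.44 ± 0.33, adjusted p = 0.235). MF had the highest of the 9 population means for 17 of the 19 mitosis genes and GN for 2. Both stood above all other populations for several of them, among which are Aurka, Cdc20, Cdk1 and Mki67.

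The regulators of cycle entry were divided, 6 higher and 6 lower of 15. Myc, which drives growth, was at 7.15 and 7.02 in GN, against 11.06 and 10.68 in MF (-3.78 ± 0.15, adjusted p = 8.52e-13). The cyclin partner Cdk4 was at 8.70 and 8.59, against 11.88 in both MF arrays (-3.23 ± 0.10, adjusted p = 3.8e-14), and Ccnd1 at 7.10 and 7.40, against 10.45 and 10.42 (-3.18 ± 0.12, adjusted p = 4e-13). After quantile normalization 3 of the 6 lower calls were kept. Higher in GN were the antiproliferative genes Btg2 (2.30 ± 0.18) and Btg1 (1.97 ± 0.09), the kinase inhibitors Cdkn2d (1.86 ± 0.16) and Cdkn1b (1.83 ± 0.10), cyclin Ccnd2 (1.77 ± 0.17) and E2f2 (1.73 ± 0.14).

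Genes of ribosome biogenesis and respiration were lower in GN where they passed. Of 14 genes for ribosome assembly 12 were lower and none higher, with a median of -1.81, and GN had the lowest of the 9 means for 13. Nucleophosmin (Npm1) was at 7.29 and 7.23 in GN, against 10.67 and 10.73 in MF (-3.44 ± 0.13, adjusted p = 5.22e-13), and the pseudouridine synthase Dkc1 at 6.04 and 6.02, against 8.66 and 8.72 (-2.66 ± 0.14, adjusted p = 4.05e-11). Of 26 genes of oxidative phosphorylation 15 were lower and none higher, with a median of -1.04, and GN was the lowest of the 9 for 17 and MF the highest for 19. The complex I subunits Ndufs3 (-2.18 ± 0.11), Ndufa9 (-1.91 ± 0.13) and Ndufb5 (-1.82 ± 0.13) and the ATP synthase subunit Atp5o (-1.80 ± 0.13) led, with Ndufs3 at 7.85 and 7.99 in GN and 10.05 and 10.15 in MF. Cox7a2 had the smallest difference and did not pass (-0.00 ± 0.19, adjusted p = 0.983). The upper quartile of intensity was lower in GN arrays, as given above, and 10 of the 12 ribosome genes, 10 of the 15 respiration genes and 9 of the 11 replication genes kept their call after quantile normalization.

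Among 17 glycolysis genes 6 were higher in GN, against 6.58% of all genes, and 3 lower, against 14.1%. The median was 0.28. The glucose transporter Slc2a3 was at 11.80 and 11.78 in GN, against 6.97 and 6.59 in MF (5.01 ± 0.13, adjusted p = 9.62e-15), and Slc2a1 at 12.60 and 12.43, against 10.27 and 9.78 (2.49 ± 0.16, adjusted p = 4.58e-10). The regulator Pfkfb4 (3.01 ± 0.14), the lactate exporter Slc16a3 (1.67 ± 0.13) and the hexokinases Hk3 (1.39 ± 0.20) and Hk1 (1.08 ± 0.11) were higher too. The liver-type phosphofructokinase Pfkl (-1.78 ± 0.13), Pfkfb3 (-1.28 ± 0.15) and Tpi1 (-1.01 ± 0.14) were lower. After quantile normalization Pfkfb3 (-0.94) and Tpi1 (-0.88) were under 2-fold, and 5 of the 6 higher calls were kept.

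**Figure D5:**
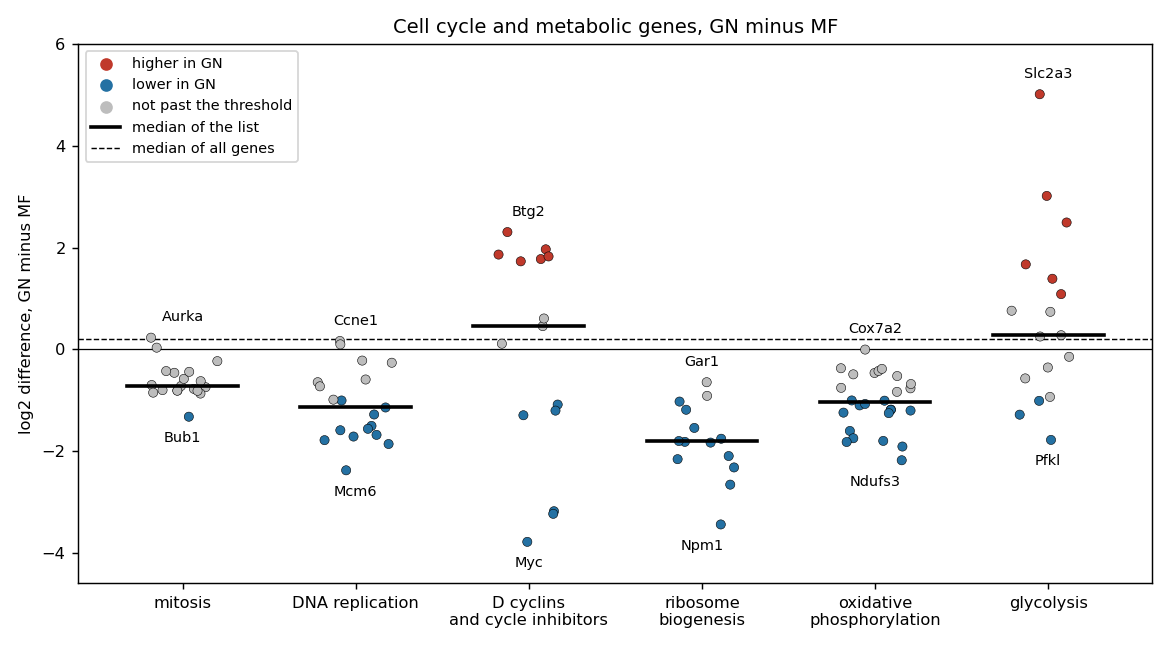
Log2 difference, GN minus MF, of the measured members of 6 gene lists, with points coloured by call, a bar at each list's median and a dashed line at the median of all genes (0.20); the members with the highest and lowest values are named. Ribosome and respiration genes lie at or below 0, glycolysis genes reach 5.01 for Slc2a3, and cycle regulators past the threshold lie on both sides of 0.

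Genes for clearing dying cells and debris were mostly lower in GN, 12 of 20 with 2 higher and a median of -1.62. Cd36, which also takes up lipids, was at 4.0 and 4.36 in GN, against 11.00 and 11.29 in MF (-6.97 ± 0.19, adjusted p = 1.63e-14). Timd4, a receptor for phosphatidylserine, was at 6.96 and 7.04 in GN, against 12.31 and 12.38 in MF (-5.35 ± 0.13, adjusted p = 4.53e-15), and the bridging protein Pros1 (-4.45 ± 0.14) and the endocytic receptor Lrp1 (-3.95 ± 0.17) were lower. Annexin A1 (Anxa1), a mediator that neutrophils carry, was higher at 12.10 and 12.30, against 10.49 and 10.45 (1.73 ± 0.28, adjusted p = 4.11e-05), and Elmo1 was higher at 1.05 ± 0.09, or 0.89 after quantile normalization.

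Lysosomal genes gave 13 lower and 3 higher of 23, against 14.1% lower and 6.58% higher of all genes, with a median of -1.08. The protease legumain (Lgmn) was at 8.06 and 7.94 in GN, against 11.91 in both MF arrays (-3.91 ± 0.17, adjusted p = 2.69e-12), followed by cathepsin B (Ctsb, -2.19 ± 0.14), granulin (Grn, -2.17 ± 0.16) and cathepsin L (Ctsl, -2.14 ± 0.17). The tetraspanin Cd63 (2.18 ± 0.24), cathepsin K (Ctsk, 1.57 ± 0.13) and Tfeb, the regulator of lysosome genes (1.38 ± 0.16), were higher.

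Complement and clotting genes were lower in GN in most cases that passed. Of 17 complement genes 9 were lower in GN and 3 higher, against 14.1% lower and 6.58% higher of all genes. The subunits of C1q were lower, with C1qc at 7.53 and 7.93 in GN, against 12.88 and 13.03 in MF (-5.23 ± 0.25, adjusted p = 1.13e-11), as were C4b (-4.93 ± 0.11), C1qa (-4.86 ± 0.18) and C1qb (-4.16 ± 0.37). The integrin chain Itgax (3.84 ± 0.20), the decay factor Cd55 (2.73 ± 0.15) and C5ar2 were higher. Of 11 clotting and fibrinolysis genes 7 were lower and 2 higher, against the same shares of all genes. Serpinb2, an inhibitor of plasminogen activators, was at 5.63 and 5.69 in GN, against 12.26 and 12.70 in MF (-6.82 ± 0.15, adjusted p = 2.08e-15), and factor X (F10, -4.14 ± 0.12) and factor VII (F7, -2.78 ± 0.15) were lower. Tissue factor (F3) was higher at 10.75 and 9.81, against 7.66 and 7.96 (2.47 ± 0.24, adjusted p = 8.23e-08), and the receptor of urokinase Plaur passed at 1.00 ± 0.25 and read 0.80 after quantile normalization.

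Enzymes for lipid mediators were divided as well, 2 higher and 5 lower of 14, against 6.58% higher and 14.1% lower of all genes. The prostaglandin synthase Ptgs2 was at 12.03 and 11.66 in GN, against 6.93 and 6.90 in MF (4.93 ± 0.19, adjusted p = 9.45e-13). The lipoxygenase Alox15 was at 6.67 and 6.98 in GN, against 13.57 and 13.69 in MF (-6.80 ± 0.33, adjusted p = 1.22e-11), and the leukotriene C4 synthase Ltc4s (-4.41 ± 0.15) and prostacyclin synthase Ptgis (-4.16 ± 0.16) were lower. Lta4h, which makes leukotriene B4, was higher (1.21 ± 0.13), and without GN replicate 2 it read 0.92, which left 1 higher. Alox5 and its partner Alox5ap did not pass (0.09 ± 0.28 and 0.05 ± 0.14).

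Markers of other cell types were near the level of dim genes in both populations, with some exceptions. None of 11 B cell, 8 NK cell, 4 red cell or 10 mesothelial and stromal markers passed. Summed over a list, B cell markers gave 1106 and 1200 in the GN arrays, against 961 and 870 in the MF arrays, and NK cell markers gave 503 and 516 in the GN arrays, against 383 and 341 in the MF arrays. Of 8 T cell markers Cd3d was higher (7.29 and 6.97 in GN, against 5.78 and 5.96 in MF) and Cd28 lower, both near or below the median level. Without GN replicate 2 the T cell markers higher numbered 2, without MF replicate 3 none was lower, and after quantile normalization 1 NK cell marker was higher. Platelet genes were uneven. Ppbp was at 9.27 and 10.36 in GN, against 5.18 and 5.37 in MF (4.54 ± 0.64, adjusted p = 9.1e-06), and Gp9 was higher (1.57 ± 0.17), while Pf4 was at 6.70 and 7.14 in GN, against 12.58 and 12.39 in MF (-5.57 ± 0.22, adjusted p = 9.34e-13). The platelet list summed to 1737 and 2530 in the GN arrays, against 6774 and 5948 in the MF arrays. Pf4 alone made up most of the MF sums. Of the 6 measured platelet genes 5 had positive differences, and the median was 0.72. What part platelets had in other results was not tested.

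Of 14 eosinophil and mast cell markers 4 were higher in GN and none lower. The histidine decarboxylase Hdc was at 12.97 in both GN arrays, against 9.99 and 10.13 in MF (2.91 ± 0.25, adjusted p = 2.34e-08), Ccr3 at 8.55 and 8.13, against 6.23 and 6.34 (2.06 ± 0.27, adjusted p = 4.46e-06), and Siglecf at 8.60 in both GN arrays, against 7.14 and 7.17 (1.44 ± 0.10, adjusted p = 1.47e-09). Kit was higher at 1.56 ± 0.14. The eosinophil granule genes Epx and Prg2 were dim, with Epx at 6.14 and 6.05 in GN and 6.07 and 6.14 in MF. Prg2 was at 6.72 and 7.0 in GN and 6.49 and 6.25 in MF. The list summed to 9546 and 9420 in the GN arrays, against 1746 and 1849 in the MF arrays, and Hdc alone made up most of each sum. What part eosinophils or mast cells had in other GN values was not tested.

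Of 6 monocyte markers 3 were higher in GN, Treml4 at 10.25 and 10.50 against 6.64 and 6.67 in MF (3.72 ± 0.16, adjusted p = 3.97e-12), Ms4a4c (2.56 ± 0.16) and Spn (1.64 ± 0.17). MF had the lowest of the 9 population means for these 3. From the highest mean down, GN ranked 2 for Treml4, 8 for Ms4a4c and 7 for Spn. Ccr2, another member, was between 7.51 and 7.92 in all 4 arrays. Of 7 markers of red pulp macrophages of the spleen 3 were higher in GN and 1 lower. Those higher were Treml4 again, Vcam1 at 7.57 and 7.88 in GN, against 6.38 and 6.28 in MF (1.40 ± 0.29, adjusted p = 0.000616), and the iron exporter Slc40a1, at 11.71 and 11.77 in GN, against 5.75 and 5.95 in MF (5.89 ± 0.30, adjusted p = 2.88e-11), and the highest of the 9 population means. Spic, another member, was dim at 5.88 and 6.02 in GN and 5.31 and 5.27 in MF. Cd5l was the lower one, at 6.01 and 6.09 in GN, against 11.90 and 11.78 in MF. Of 7 genes of small peritoneal macrophages 5 were lower in GN, led by Retnla and Clec10a (-3.88 ± 0.15), and the dendritic cell lectin Cd209a was lower in GN (-3.34 ± 0.20, adjusted p = 2.52e-10). The small peritoneal macrophage list summed to 591 and 612 in the GN arrays, against 4585 and 5008 in the MF arrays, the monocyte list to 2902 and 2871 in the GN arrays, against 843 and 860 in the MF arrays and the red pulp list to 6284 and 6667 in the GN arrays, against 5741 and 5364 in the MF arrays. Of 8 dendritic cell markers Clec9a (1.37 ± 0.18) and Kmo (1.03 ± 0.15) were higher, and this count was 0 with dim genes left out. The count also changed when either GN array was left out, and Kmo read 0.77 without GN replicate 1. Flt3, another member, was between 6.27 and 6.77 in all 4 arrays. Of 5 plasmacytoid dendritic cell markers Tcf4 was lower (-1.83 ± 0.12), and Siglech was between 6.25 and 6.84. What part any of these cells had in the results was not tested.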

How the data were processed

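Total RNA of sorted cells was measured on 18 one-colour arrays, 2 for each of 9 populations, and samples were grouped by title. Each deposited value is an untransformed intensity of a probe set on an array. Per the submitters' processing notes the authors used RMA and Affymetrix Power Tools, whose versions are not given in the sources used here. RMA corrects background, normalizes arrays and summarises the probes of a set, and it compresses differences between dim genes. The number of arrays limits the precision, and the table has no count of reads behind a value.

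Of 24922 probe sets, 21425 had 1 gene symbol in GEO's platform annotation, 1399 had several and 2098 none. Symbols were updated by Entrez number for 21347 against a RefSeq gene table of GRCm38.p6. For the 921 genes with several probe sets the brightest by mean was kept, so that 19752 genes were tested. After log2, limma 3.58.1 in R 4.3.3 fitted 1 mean per population to all 18 arrays (lmFit, contrasts.fit, eBayes with a mean-variance trend), with 9 residual and 7.69 prior degrees of freedom, and the contrast GN minus MF was tested two-sided. Promoters came from a RefSeq table of GRCm38.p6 with 250 bases before and 50 after the start. Tables and plots used Python 3.11.15, pandas 2.3.3 and matplotlib 3.10.9. The fit was tested on simulated data.

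Named genes are the 15 largest positive and 15 largest negative differences among genes past the threshold, leaving out clone, predicted, microRNA and small RNA names, the sort genes, and from each of 53 lists the 5 largest called members and up to 3 called the other way. Other list members are examples. The members and lists were chosen with earlier results of these data known. Probe sets with several symbols or none were not named. Alternatives changed the normalization, the samples in the fit, the variance model, the filter on dim genes, the probe set rule, the fold minimum and the replicates.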

Additional observations from a re-analysis of the deposited data

How the results depend on the processing

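Under 14 alternatives no gene was called in the opposite direction, and none of the 226 named genes changed sign where it was tested. With dim genes left out 8 of them were not tested. With the adjusted p alone and no fold minimum, 12949 genes passed, 7603 higher in GN and 5346 lower, and 38 of the 106 list counts moved by over 1.5 times. The other counts of calls stayed within 1.5 times: 3833 after quantile normalization (1514 higher, 2319 lower), 4036 after median centring (1407 and 2629), 4097 with only the 4 arrays, 4096 without the DC arrays, 4094 without the mean-variance trend, 4092 with robust eBayes, 4064 with the mean of probe sets and 3932 of 11302 genes without dim genes. Leaving out each array in turn gave 4099 to 4142 calls, 1243 to 1400 higher and 2742 to 2866 lower. GN replicates are numbered 1 and 2 and MF replicates 2 and 3, so they share a single number and the labels do not say that a number pairs samples. With the replicate number as a block in the fit of all 18 arrays, 4095 genes passed, 1302 higher and 2793 lower. Of these, 1233 of the higher and 2699 of the lower calls were those of the fit without the block. Named genes that lost the 2-fold difference under an alternative numbered 15 after quantile normalization, 1 after median centring, 5 with the block and between 4 and 12 when an array was left out. They were 21 genes in all, most with a difference near 1, and the cause was not tested. Besides those named above, Kmo read 0.88 and Cd28 -0.95 with the block, Cd44 0.86 and Bcl2 -0.87 after quantile normalization, and eicosanoid enzymes gave 4 higher members with the block in place of 2.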

Other observations

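Iron and heme genes differed beyond the exporter Slc40a1. The metalloreductase Steap4 was at 11.05 and 11.23 in GN, against 5.85 and 5.90 in MF (5.26 ± 0.24, adjusted p = 6.81e-12), while the ferroxidase ceruloplasmin (Cp) was at 5.86 and 5.90 in GN, against 9.46 and 9.63 in MF (-3.66 ± 0.10, adjusted p = 1.33e-14). Steap4 was high in GN and Cp in MF, without overlap. The transferrin receptor Tfrc (-1.72 ± 0.15) and the biliverdin reductases Blvrb (-2.64 ± 0.17) and Blvra (-1.70 ± 0.14) were lower in GN. Ferritin chains did not pass, with Fth1 at 0.17 ± 0.08 and Ftl1 at -0.07 ± 0.10. Lipid genes were lower in 6 of 16 cases and higher in 1, against 14.1% lower and 6.58% higher of all genes. Lipoprotein lipase (Lpl, -4.96 ± 0.17) and Fabp4 (-4.63 ± 0.11) led the lower ones. The cholesterol exporter Abcg1 was higher (1.35 ± 0.15) and Abca1 lower (-1.21 ± 0.22).

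Of 17 integrin and adhesion genes, without the sort gene Icam2, 3 were higher in GN and 4 lower. Of all genes 6.58% were higher and 14.1% lower. The median of 0.21 was near the 0.20 of all genes. The LFA-1 chain Itgal was at 11.70 and 11.71 in GN, against 6.91 and 7.05 in MF (4.73 ± 0.11, adjusted p = 2.56e-15), and the laminin receptor chain Itga6 was at 7.33 and 7.23 in GN, against 12.23 and 12.24 in MF (-4.96 ± 0.14, adjusted p = 1.33e-14). The chain Itgam, shared by both cell types, did not pass (-0.45 ± 0.21, adjusted p = 0.0648). Of 16 survival and apoptosis genes 5 were higher in GN and 1 lower, against 6.58% higher and 14.1% lower of all genes. The death receptor Fas was higher at 1.93 ± 0.13 and the short-lived protector Mcl1 at 1.03 ± 0.15, and Bcl2 was lower (-1.13 ± 0.16). After quantile normalization 4 of the 5 higher calls were kept, without that of Mcl1. Of 25 transcription factors 3 were higher and 11 lower, against 6.58% higher and 14.1% lower of all genes. Cebpe, needed for late granule genes, led the higher ones (2.18 ± 0.14). Among the lower ones was Mitf at -1.29 ± 0.12, whose other probe set read -0.14 ± 0.14.

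Probe sets outside the named genes showed calls too. In a separate fit of all probe sets, 298 of 1399 with several symbols passed, which is near the 20.7% of all genes. Of 2098 without a listed gene 273 passed, which is below that share.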
